A study of Homo sapiens with 2 samples.

Results

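The HOX cluster genes were followed in C4-2B ENZR, a human prostate cancer cell line kept under enzalutamide, a hormone therapy drug. They were taken as all gene symbols made of HOX, a cluster letter from A to D and a position number that both deposited tables list, with 1 gene of cluster B left out. This gave 38 of the 26447 named genes, 11 in cluster A, 9 in cluster B, 9 in cluster C and 9 in cluster D. RNA sequencing compared 1 library of each kind. The shNRP2 library came from cells with a stably integrated lentiviral hairpin against the coding region of NRP2, which encodes the semaphorin and VEGF co-receptor neuropilin-2, and its genotype is given as NRP2 knockdown. The shControl library came from cells with a non-targeting hairpin, with the genotype given as WT. Both lines had passed antibiotic selection and grew with 20 µM enzalutamide in serum-containing medium. With 1 library per group no spread between cultures exists, so differences describe these libraries, no test between conditions is given, and intervals cover counting error only.

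HOX proteins are transcription factors that bind DNA through a homeodomain, often together with PBX and MEIS partners, and give cells their identity along the body axis. In the embryo the genes of a cluster are used in the order in which they lie, low position numbers anteriorly and high ones posteriorly, and adult epithelia keep part of that code. The prostate, which arises from the urogenital sinus, is a tissue of posterior HOX genes. Genes with the same number in different clusters are paralogues that descend from 1 ancestral gene.

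NRP2 had 7 reads in the shNRP2 library and 20 in the shControl library, or 0.330 and 0.974 CPM, the depth-scaled unit of the deposited values, a ratio of 0.339 with a counting interval from 0.121 to 0.835. The target was thus low in both libraries, which held 22992304 and 21052178 reads on genes. The prostate luminal markers FOLH1, KLK3, KRT8, KRT18 and EPCAM were all detected, KRT8 at 616 and 457 CPM. KLK3, which encodes prostate-specific antigen, differed widely, at 41.0 CPM in the shNRP2 library and 5.599 CPM in the shControl library, a ratio of 7.33 (6.03 to 8.98). Markers of other cells summed to 33.7 and 42.8 CPM for 4 fibroblast genes, 3.87 and 3.75 CPM for 3 endothelial genes and 10.0 and 7.01 CPM for 3 leukocyte genes. Most of these reads were on COL1A1, at 32.5 and 41.5 CPM, VWF, at 3.40 and 3.75 CPM, and CD68, at 9.95 and 6.67 CPM, while LUM had 20 and 21 reads. DCN had 0 reads in both libraries, CDH5 had 4 and 0, PECAM1 6 and 0, PTPRC 1 and 5, and CD3E 1 and 2. The part of KLK3 and of these markers in the results below was not tested. Fewer expressing cells and less RNA per cell cannot be told apart in such bulk samples.

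The same HOX genes carried the reads in both libraries, and they formed patches within the clusters. Cluster A was read mainly at the posterior genes HOXA10 and HOXA11, and less at the central gene HOXA4. Cluster B was read from HOXB3 to HOXB9 with gaps, cluster C on both sides of HOXC10 and HOXC11, and cluster D at its last gene alone. Of the 38 genes, 16 had a mean of at least 1 CPM and were compared, 13 had fewer reads, and 9 had 0 reads in both libraries. These 9 were HOXB1, HOXD1, HOXD3, HOXD4, HOXD8, HOXD9, HOXD10, HOXD11 and HOXD12. A count of 0 allows a level of up to 0.141 CPM in the shNRP2 library and 0.146 CPM in the shControl library, taken as 3 reads. None of 12 housekeeping genes was at 0.

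**Figure D1:**
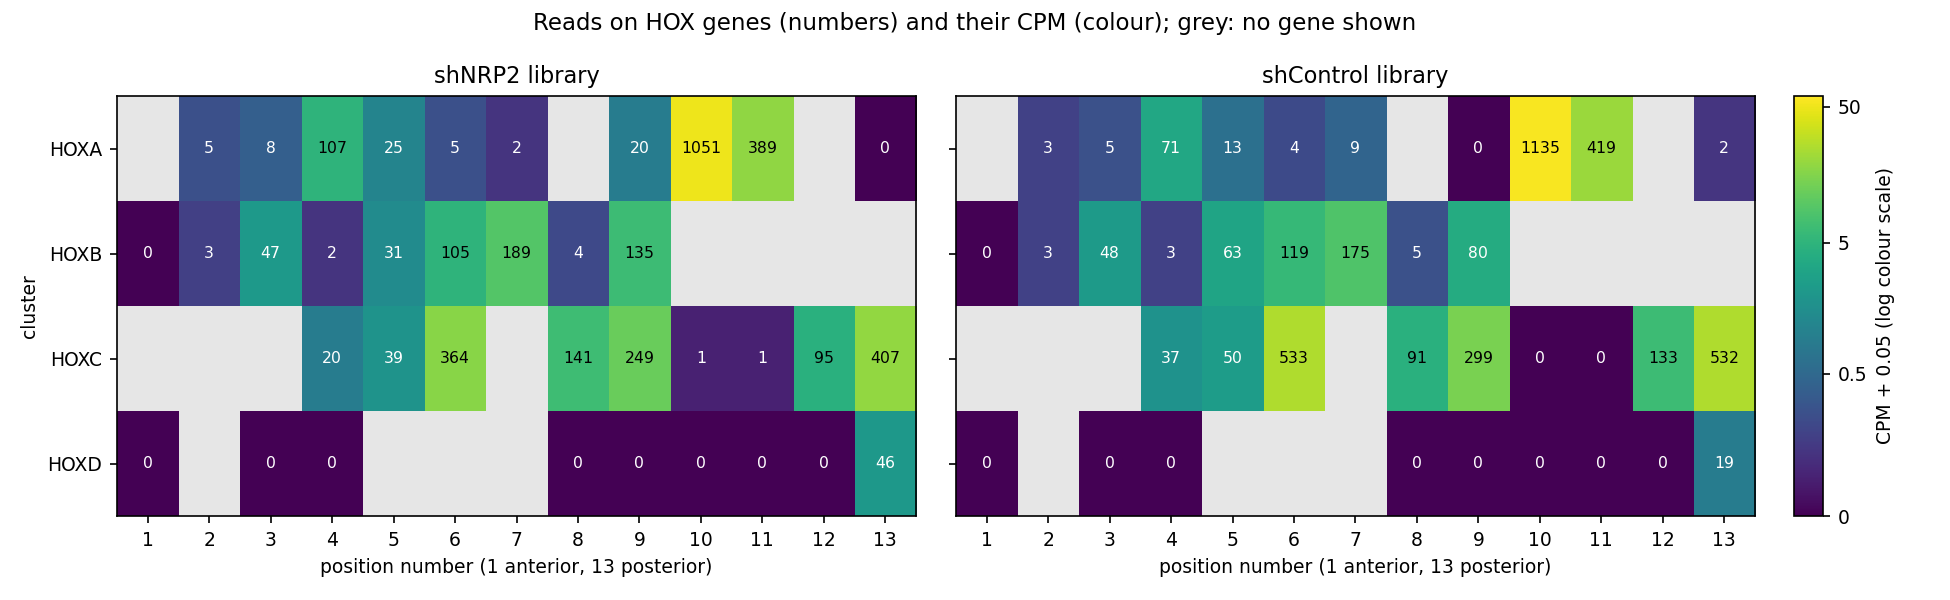
Reads on the HOX genes reported (numbers) and their CPM (colour, log scale) by cluster (rows) and position number (columns), in the shNRP2 library on the left and the shControl library on the right. HOXA10 is the brightest cell in both, with 1051 and 1135 reads, and cluster D is dark in both except for HOXD13, with 46 and 19 reads.

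Genes are called anterior at positions 1 to 3, central at 4 to 8 and posterior at 9 to 13. Levels of different genes were compared per kb of the longest coding transcript in GENCODE 29, since longer transcripts yield more reads. HOXA10 stood first, at 19.5 CPM per kb in the shNRP2 library and 21.7 in the shControl library. HOXC13 (7.92 and 10.7 CPM per kb), HOXC9 (7.75 and 9.60), HOXA11 (7.99 and 8.89), HOXC6 (5.83 and 8.82) and HOXB7 (6.50 and 6.21) followed. The other 10 compared genes lay below 3.6 CPM per kb in both libraries. The last by mean were HOXD13, at 0.969 and 0.413, and HOXB3, at 0.527 and 0.555. With 1 library each, neighbours in this order cannot be ranked against culture-to-culture spread. Of the 6 highest genes per kb, 4 are posterior by position number, HOXA10, HOXC13, HOXC9 and HOXA11, and the other two, HOXC6 and HOXB7, are central.

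**Figure D2:**
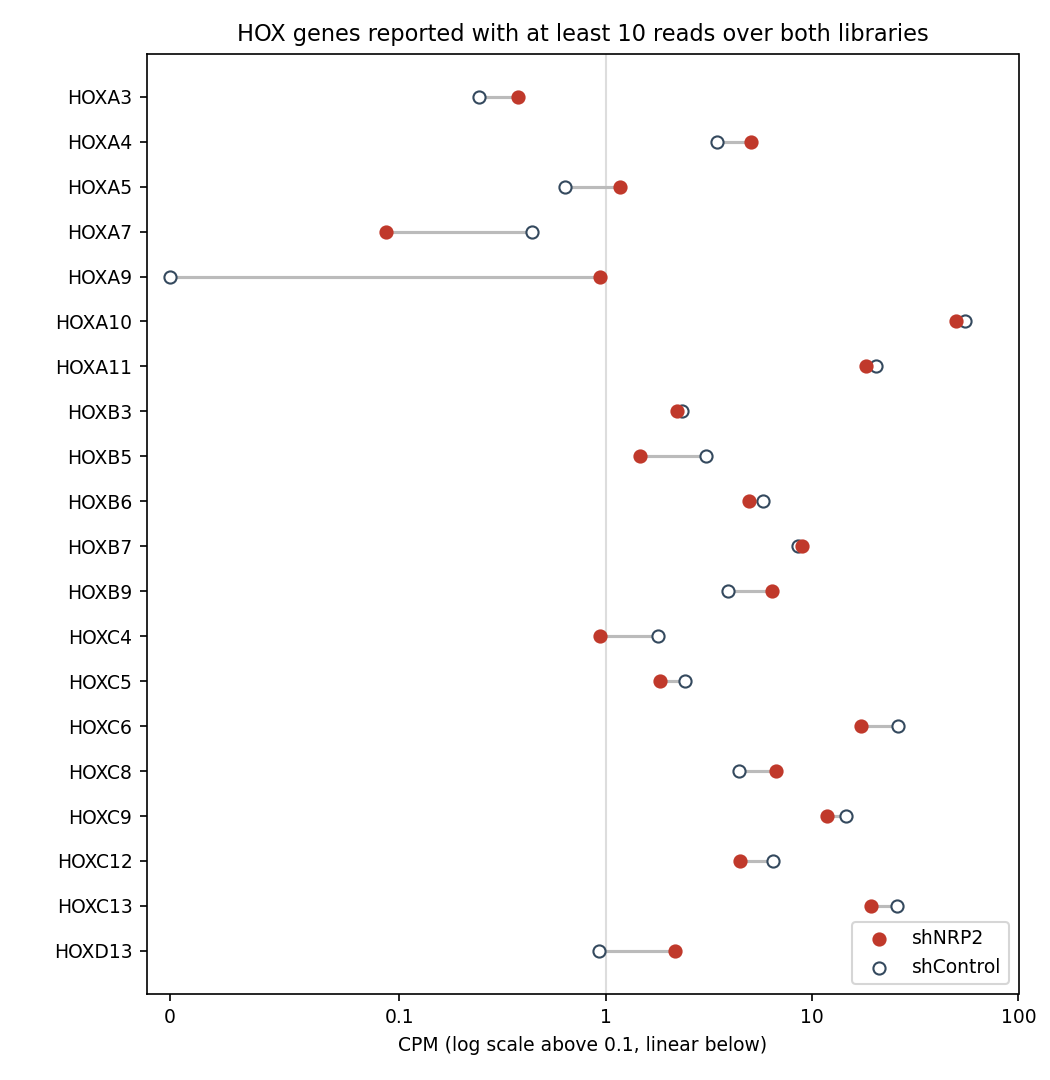
CPM (log axis above 0.1, linear below) of the HOX genes reported with at least 10 reads over both libraries, filled points for shNRP2 and open points for shControl. The points of HOXA10 and HOXA11 nearly touch, those of HOXC6, HOXC12 and HOXC13 lie to the left in shNRP2, and HOXA9 is at 0 in shControl.

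RefSeq gives promoter windows, 250 bases before to 50 after a gene's start, for 6 of the 16 compared genes. Of these, 4 windows are shown because their genes lay on different sides of level below. HOXC4, with an interval below 1, and HOXC5, whose interval included 1, are given the same start and window (chr12:54016638-54016937, plus strand). HOXA11 was nearly level (chr7:27185183-27185482, minus strand), and HOXA4 (chr7:27130708-27131007, minus strand) and HOXD13 (chr2:176092471-176092770, plus strand) were higher. All are RefSeq sequences of build GRCh38.p14, written 5′ to 3′, and capitals mark ACGTG or its reverse complement. These letters are the core of the hypoxia response element, and where both strands hold them in overlap, as CACGTG, they form an E-box.
HOXC4 and HOXC5: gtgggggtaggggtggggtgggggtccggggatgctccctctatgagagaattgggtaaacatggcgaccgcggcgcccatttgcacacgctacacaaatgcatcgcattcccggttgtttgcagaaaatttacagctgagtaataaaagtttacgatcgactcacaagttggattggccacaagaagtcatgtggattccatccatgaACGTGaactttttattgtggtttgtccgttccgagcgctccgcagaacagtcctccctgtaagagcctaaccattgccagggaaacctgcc
HOXA11: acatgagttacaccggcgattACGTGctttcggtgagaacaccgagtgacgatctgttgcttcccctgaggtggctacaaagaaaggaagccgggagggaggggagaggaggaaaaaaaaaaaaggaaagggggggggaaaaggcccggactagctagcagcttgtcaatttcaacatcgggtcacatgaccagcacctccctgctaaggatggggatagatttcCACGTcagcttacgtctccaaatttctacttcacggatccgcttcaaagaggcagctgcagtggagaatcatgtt
HOXA4: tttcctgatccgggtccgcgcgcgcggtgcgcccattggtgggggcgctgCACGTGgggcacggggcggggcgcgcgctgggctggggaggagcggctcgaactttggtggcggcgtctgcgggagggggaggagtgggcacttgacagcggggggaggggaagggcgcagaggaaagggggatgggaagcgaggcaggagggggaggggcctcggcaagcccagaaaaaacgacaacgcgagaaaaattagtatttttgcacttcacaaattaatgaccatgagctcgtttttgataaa
HOXD13: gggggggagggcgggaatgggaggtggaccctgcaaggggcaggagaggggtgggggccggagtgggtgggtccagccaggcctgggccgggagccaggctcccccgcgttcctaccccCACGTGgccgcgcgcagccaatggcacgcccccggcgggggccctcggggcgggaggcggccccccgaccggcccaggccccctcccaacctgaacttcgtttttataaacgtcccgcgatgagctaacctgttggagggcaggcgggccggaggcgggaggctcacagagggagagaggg
Each printed window held ACGTG on at least 1 strand. HOXA10, whose windows are not printed, has 1 window with these letters and 1 without. Among the HOX genes, 14 of 26 windows, from 20 genes, held it, 53.8%, against 21.4% of all 35116 windows of the same length. The window common to HOXC4 and HOXC5 is listed once for each gene. The HOX windows also held more CG dinucleotides, with a median of 22.5 against 14 over all windows. ACGTG itself contains CG, and the part of CG content in its share was not tested. TATAAA on either strand was in 5 of the 26, 19.2%, against 11.5% of all windows, among them the HOXD13 window. TGATTNAT, the joint PBX and HOX motif, was in 2 of 26, 7.69%, against 2.82%, and in none of the windows printed. A match of letters does not show a bound site.

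Most compared HOX genes lay slightly lower in the shNRP2 library, and few moved far. All HOX genes summed to 166 CPM in the shNRP2 library and 188 CPM in the shControl library, a ratio of 0.882 (0.843 to 0.924), and without HOXA10 the ratio was 0.876 (0.829 to 0.925). The compared genes ranged from HOXB5 to HOXD13. Their median log2 change, taken as log2 of (shNRP2 CPM + 1)/(shControl CPM + 1), was -0.17, beside 0.03 over all 13316 genes compared in this way. This scale understates the change of low genes. Of the 16, 11 lay below 0, 68.75%, where 45.9% of all compared genes did. At 1.5-fold on this scale, 2 of 16 were higher, HOXB9 and HOXD13, where 5.78% of all compared genes were, and 1 was lower, HOXB5, where 3.57% were. Together, 3 of 16 passed in either direction, where 9.35% of all compared genes did. HOXD13, at 0.925 CPM in the shControl library, reached a mean of 1 CPM only through the shNRP2 library. HOXC4, at 0.943 CPM in the shNRP2 library, reached it only through the shControl library. Among the 8377 genes no higher than HOXA10 in mean CPM, 7.93% were higher and 4.99% lower. Counts this small lie near that background. Setting both libraries to equal totals changed the split to 1 HOX gene higher (HOXD13) and 2 lower (HOXB5 and HOXC6), and that of all genes to 606 higher and 671 lower, against 769 and 476. HOXC6, at a log2 change of -0.57, lay just short of the threshold and HOXB9, at 0.59, just past it.

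Counting error alone did not cover most of these differences. The interval of the CPM ratio lay above 1 for 4 of the 16 genes, HOXA4, HOXB9, HOXC8 and HOXD13, where 32.7% of all compared genes did. It lay below 1 for 7 of 16, HOXA10, HOXB5, HOXC4, HOXC6, HOXC9, HOXC12 and HOXC13, where 24% did. In all, 11 of 16 intervals did not include 1, where 56.8% of all compared genes had such intervals. Among the 8377 genes no higher than HOXA10, the shares above and below 1 were 26.3% and 23.4%. An exact conditional binomial test with Benjamini-Hochberg adjustment over all compared genes called 11 HOX genes and 6954 genes in all, 52.2%. That test compares these 2 libraries and not the conditions.

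**Figure D3:**
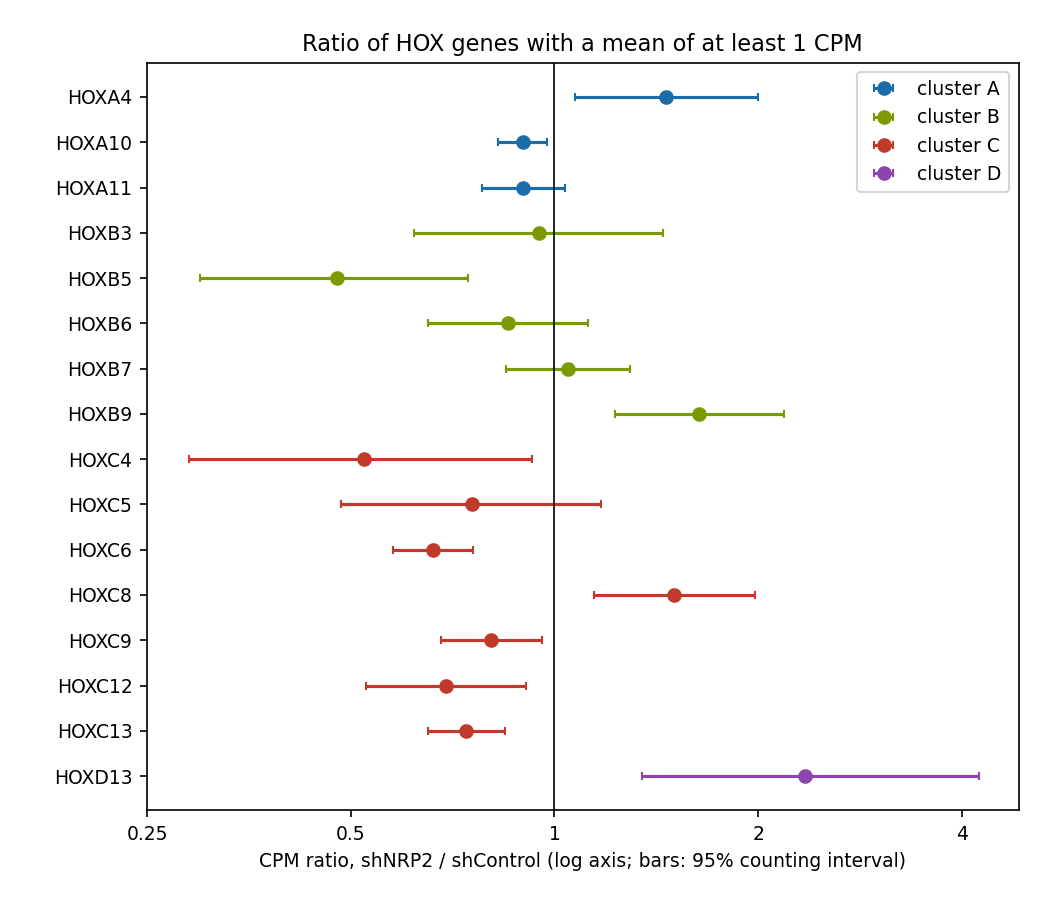
CPM ratio of shNRP2 over shControl (log axis) for the 16 compared HOX genes, with bars for the 95% counting interval and a colour for each cluster. In cluster C, 6 of 7 points lie left of 1 and HOXC8 lies right of it, at 1.501.

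Cluster C, on chromosome 12, was lower in the shNRP2 library as a sum, by more than counting error. Its 9 genes summed to 1317 reads in the shNRP2 library and 1675 in the shControl library, or 62.1 and 81.5 CPM, a ratio of 0.762 (0.708 to 0.819). As a share of all HOX reads, which does not depend on how the libraries are scaled, cluster C took 37.4% (exact binomial interval 35.8 to 39.0) in the shNRP2 library and 43.3% (41.8 to 44.9) in the shControl library. Both its central and its posterior genes contributed, at ratios of 0.768 (0.687 to 0.859) and 0.757 (0.687 to 0.833).

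HOXC6, whose mRNA is measured in urine as a prostate cancer marker, was at 17.2 CPM in the shNRP2 library and 25.9 CPM in the shControl library, 1.51-fold lower (1.32 to 1.73). HOXC4, a gene known in mouse B cells for control of antibody class switching, was at 0.943 and 1.80 CPM, from 20 and 37 reads, 1.91-fold lower (1.08 to 3.47). HOXC5 was at 1.84 and 2.43 CPM, and its interval included no difference. All 3 lay lower, but their reads are not fully separable. In GENCODE 29, 19.6% of the 50-base stretches of coding HOXC4 transcripts are also in HOXC6 transcripts, 11.5% are in HOXC5 transcripts, and HOXC4 and HOXC5 share a start, as the window above shows. Taken as a unit, the 3 genes had 423 and 620 reads, a ratio of 0.661 (0.583 to 0.749).

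Towards the other end of the cluster, HOXC9 was at 11.7 CPM in the shNRP2 library and 14.6 CPM in the shControl library, 1.24-fold lower (1.04 to 1.47). HOXC12 was at 4.48 and 6.48 CPM, 1.45-fold lower (1.10 to 1.90). HOXC13, which drives keratin genes of hair and nail, was at 19.2 and 25.9 CPM, 1.35-fold lower (1.18 to 1.54). No 50-base stretch in coding transcripts of HOXC9, HOXC12 or HOXC13 is shared with another gene on the same strand. These 3 genes together stood at a ratio of 0.755 (0.685 to 0.831), beside 0.661 for HOXC4 to HOXC6.

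HOXC8 differed in direction from its neighbours. It lies between HOXC9 and the HOXC4 to HOXC6 unit and was at 6.65 CPM in the shNRP2 library and 4.43 CPM in the shControl library, from 141 and 91 reads, a ratio of 1.501 (1.15 to 1.98). Its coding transcripts share no 50-base stretch with other genes on either strand. Without HOXC8 the ratio of the cluster was 0.719 (0.666 to 0.776). HOXC10 and HOXC11, between HOXC9 and HOXC12, had 1 read each in the shNRP2 library and 0 in the shControl library, so the reads of cluster C came from blocks on either side of a silent stretch.

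Cluster A, on chromosome 7, held most of its reads in HOXA10 and was nearly level as a sum. It had 1640 reads in the shNRP2 library and 1674 in the shControl library, a ratio of 0.949 (0.886 to 1.02). HOXA10, which patterns the Müllerian duct and the limb, took 64.1% (61.7 to 66.4) of the reads of cluster A in the shNRP2 library and 67.8% (65.5 to 70.0) in the shControl library. It was at 49.6 and 55.3 CPM, 1.11-fold lower (1.02 to 1.21). HOXA11, which also acts in the reproductive tract and limb, was at 18.3 and 20.4 CPM, 1.11-fold lower with an interval from 0.966 to 1.28. HOXA10 and HOXA11 thus differed by nearly the same small ratio, and that of HOXA11 was within counting error. Without HOXA10 the ratio of cluster A was 1.06 (0.940 to 1.19).

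The central genes of cluster A lay the other way as a sum, most of whose reads were on HOXA4. HOXA4 was at 5.05 CPM in the shNRP2 library and 3.46 CPM in the shControl library, a ratio of 1.46 (1.07 to 2.00), though 28.3% of its 50-base stretches are shared with another annotated gene on the same strand. HOXA5, known for its part in lung development, had 25 and 13 reads, a ratio of 1.86 (0.918 to 3.97), and did not reach a mean of 1 CPM. HOXA2 had 5 and 3 reads, HOXA3 8 and 5, and HOXA6 5 and 4, all within counting error. HOXA4 to HOXA7 summed to 139 and 97 reads, a ratio of 1.39 (1.06 to 1.82), with 107 and 71 of them on HOXA4. HOXA9 to HOXA13 summed to 1460 and 1556 reads, a ratio of 0.909 (0.846 to 0.977). HOXA7 went against its neighbours, with 2 and 9 reads and an interval that included no difference, and 62.7% of its 50-base stretches overlap the antisense gene HOXA-AS3.

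HOXA9, a gene known for its role in leukaemia, had 20 reads in the shNRP2 library and 0 in the shControl library. The counting interval of the ratio began at 4.78 and had no upper bound. Set against an assumed 3 reads in the shControl library, the 20 reads would be 6.46-fold higher. The readthrough model HOXA10-HOXA9 went the other way, with 0 reads and 7, and the listing could divide the same reads between the models. Counted together they had 20 and 7 reads, a ratio of 2.77 (1.12 to 7.75), so the size for HOXA9 alone is uncertain. HOXA13, the last gene of the cluster, had 0 reads and 2.

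**Figure D4:**
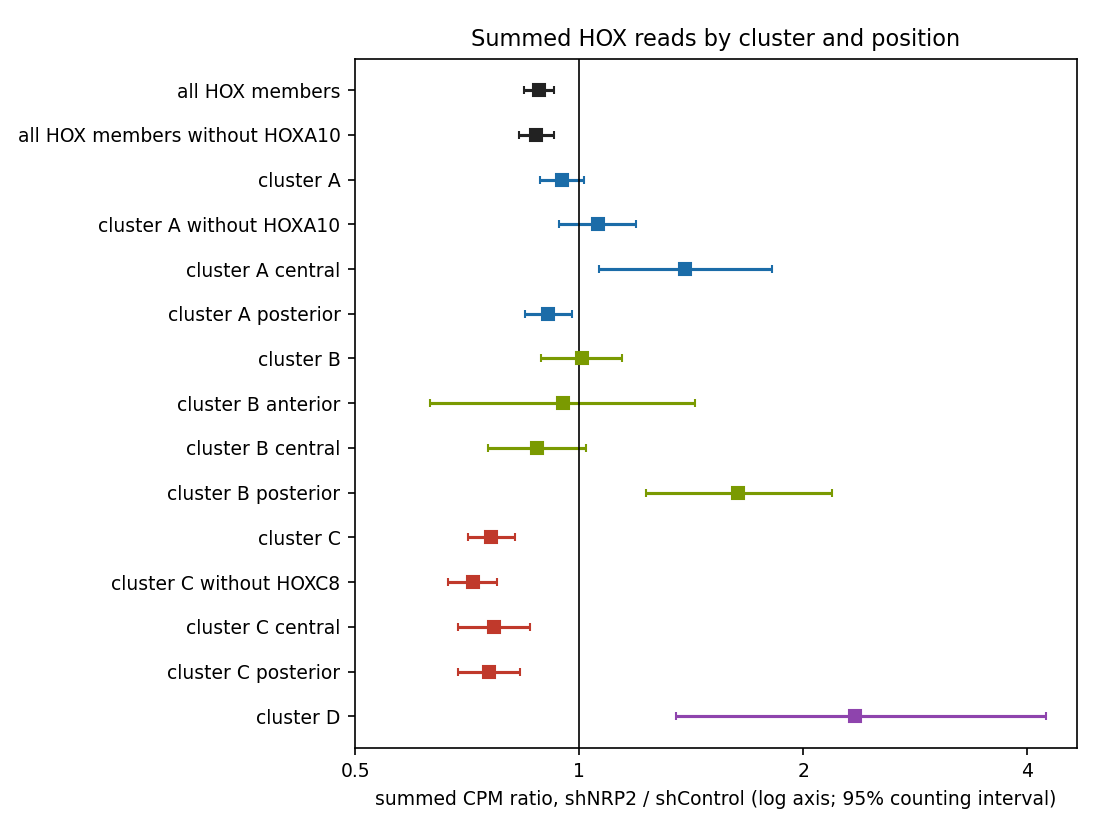
Ratio of summed CPM, shNRP2 over shControl (log axis), for all HOX genes, each cluster and parts of clusters by position, with bars for the 95% counting interval. Cluster C and both its parts lie left of 1. The central part of cluster A, most of whose reads were on HOXA4, lies right of it, and cluster D rests on HOXD13 alone.

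Cluster B, on chromosome 17, was level as a sum, with 516 reads in the shNRP2 library and 496 in the shControl library, a ratio of 1.01 (0.889 to 1.14), while HOXB5 and HOXB9 moved apart. HOXB5 was at 1.46 CPM in the shNRP2 library and 3.07 CPM in the shControl library, from 31 and 63 reads, 2.098-fold lower (1.34 to 3.34). HOXB9, the most posterior cluster B gene followed here, was at 6.37 and 3.89 CPM, from 135 and 80 reads, a ratio of 1.63 (1.23 to 2.18). These were the lowest and highest log2 changes of the cluster, -0.72 and 0.59, and on the same strand HOXB9 shares no stretch with another gene and HOXB5 shares 0.0502% of its stretches.

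Between them, HOXB6 was at 4.95 CPM in the shNRP2 library and 5.79 CPM in the shControl library, and HOXB7 at 8.91 and 8.52 CPM. HOXB3 was at 2.22 and 2.34 CPM. All 3 intervals included no difference, and the log2 change of HOXB7, 0.06, turned to -0.01 with equal library totals. HOXB6 shares 19.2% of its stretches with long HOXB3 transcripts. HOXB2 had 3 reads in each library, HOXB4 had 2 and 3, and HOXB8 had 4 and 5, so HOXB4 and HOXB8 stood near silence beside neighbours with more reads.

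Cluster D, on chromosome 2, was read at HOXD13 alone. HOXD13, which patterns the digits and the urogenital tract, had 46 reads in the shNRP2 library and 19 in the shControl library, or 0.969 and 0.413 CPM per kb, a ratio of 2.35 (1.35 to 4.24). Its log2 change of 0.72 was the highest of the compared HOX genes, but HOXD13 reached a mean of 1 CPM only through the shNRP2 library. The other 8 genes of the cluster had 0 reads in both libraries, as did EVX2, the homeobox gene next to HOXD13. Much of HOXD3 and HOXD4 is shared with another annotated gene, 86.9% and 76.5% of their stretches, so reads there could be listed elsewhere. HOXD8, HOXD9 and HOXD12 share no stretch with another gene and also had 0 reads.

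Of the 5 paralogue groups with more than 1 compared gene, 3 held genes of both directions. Since 5 of the 16 compared HOX genes lay above 0 and 11 below, mixed pairs are common among any of them. These few groups therefore cannot show a trait of paralogues. In group 13, HOXC13 was at a log2 change of -0.41 and HOXD13 at 0.72. In group 9, HOXC9 was at -0.29 and HOXB9 at 0.59, and in group 4, HOXC4 was at -0.53 and HOXA4 at 0.44. Groups 5 and 6 had compared genes of clusters B and C alone, and these lay on the same side, HOXB5 and HOXC5 at -0.72 and -0.27, and HOXB6 and HOXC6 at -0.19 and -0.57.

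Noncoding RNAs transcribed within the clusters were low and close to level. Of 28 names listed, 22 were in the tables and 4 had a mean of at least 1 CPM, and none of the 4 was higher or lower at 1.5-fold. HOTAIRM1, in cluster A, was at 3.30 CPM in the shNRP2 library and 4.04 CPM in the shControl library. HOXA11-AS was at 6.32 and 5.31 CPM, HOXC13-AS at 3.82 and 4.48 CPM, and HAGLR, in cluster D, at 1.23 and 1.12 CPM. All 4 intervals included no difference. Transcripts of HOXA11 and HOXA11-AS overlap on opposite strands over 29.01% of the stretches of HOXA11, and the sources used here do not say whether counting used the strand. HOTAIR, which lies in cluster C and is known to recruit Polycomb, had 1 read and 2, HOTTIP 2 and 0, and the miRNA genes MIR10A, MIR10B, MIR196A1, MIR196A2, MIR196B and MIR615 were listed at 0. Counts of a long RNA library do not measure mature miRNAs.

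TALE homeodomain proteins bind DNA together with HOX proteins. Of the compared genes reported here, all but PBX3 lay lower in the shNRP2 library, mostly within counting error. PKNOX1 was at 23.9 CPM in the shNRP2 library and 28.1 CPM in the shControl library, 1.18-fold lower (1.04 to 1.33). PBX2 was at 44.2 and 47.0 CPM, PBX3 at 9.62 and 8.18 CPM, PBX4 at 2.08 and 2.78 CPM and PKNOX2 at 2.59 and 3.41 CPM, with intervals that included no difference. None of these 5 passed 1.5-fold, where 9.35% of all compared genes did, but the list is not reported in full. The MEIS genes were near silence, MEIS1 with 24 and 17 reads, MEIS2 with 1 and 6, and MEIS3 with 10 and 15.

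Chromatin regulators that keep HOX clusters on or off were near level in RNA as groups. Single genes among them differed by more than counting error about as often as compared genes in general. None of 19 compared trithorax group and other activator genes passed 1.5-fold in either direction, where 9.35% of all compared genes did, and their median log2 change was -0.00. Single log2 changes ran from -0.29 to 0.34. Intervals of the ratio lay above 1 for 6 of them and below 1 for 6, where 32.7% and 24% of all compared genes did. KDM6A was at 314 CPM in the shNRP2 library and 341 CPM in the shControl library, MLLT1 at 203 and 196 CPM, KDM6B at 162 and 197 CPM and KMT2D at 154 and 167 CPM. None of 29 Polycomb repressor genes, counted with the boundary factor CTCF, passed 1.5-fold either, with a median of 0.00. Their log2 changes ran from -0.43 to 0.38, with intervals above 1 for 9 genes and below 1 for 9, beside 32.7% and 24% of all compared genes. Among the Polycomb genes, CBX6 was at 415 and 397 CPM, RBBP4 at 386 and 356 CPM and RBBP7 at 228 and 243 CPM. The 9.35% covers genes of all levels. Of the 8377 genes no higher than HOXA10 in mean CPM, larger shares passed, 7.93% higher and 4.99% lower. Most of the activators and many Polycomb genes lay above HOXA10, so 9.35% is not matched to their level. The counts of 0 are therefore not read as a trait of these genes. Of the retinoic acid genes, which set HOX expression in the embryo, 1 of 11 compared was higher at 1.5-fold and none lower, a count near the 5.78% and 3.57% of all compared genes. It was CRABP2, a retinoic acid binding protein, at 2.92 and 0.584 CPM, a ratio of 5.01 (2.67 to 10.2). CRABP2 reached a mean of 1 CPM only through the shNRP2 library. The receptors RXRA, at 106 and 121 CPM, RARG, at 77.9 and 61.1 CPM, RXRB, at 40.8 and 54.7 CPM, and RARA, at 41.6 and 39.4 CPM, lay on both sides of level.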

How the data were processed

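RNA sequencing libraries of shNRP2 and shControl cells, 1 each, were compared. The authors deposited a signal per gene symbol, named there as TMM-normalized CPM. The submitters' processing notes name bcl2fastq 2.17, Bowtie2 2.1.0, RSEM 1.2.15, edgeR and hg19. The sources used here give neither annotation nor strand setting. In both libraries 100% of values were whole multiples, within 0.01 read, of the value of 1 read, 0.0472 CPM for shNRP2 and 0.0487 CPM for shControl, so whole reads were recovered. The columns do not sum to the fixed total of plain CPM, for which the design had been written, and were treated as a signal. Another 28 symbols that read as dates were left out (0.184% and 0.181% of the reads).

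Genes whose mean reached 1 CPM were compared on log2(CPM + 1), with a threshold of 1.5-fold. Ratios carry 95% exact conditional binomial intervals from reads (Python 3.11.15, SciPy 1.17.1), a calculation tested on simulated data. The 1 gene left out and a few other genes that the rules below would name are not reported here. Lengths and shared 50-base stretches (of coding transcripts, in any transcript of another gene) came from GENCODE 29, on another build, and no coordinate was taken from it. Gene order is that of RefSeq on GRCh38.p14. The rule names all HOX genes. Of other lists, TALE cofactors and noncoding RNAs at 1 CPM or more are named, and elsewhere genes past 1.5-fold and up to 4 of the highest mean. SMUG1 and CALCOCO1 were named for their position after their values were seen. Members and lists were chosen with earlier results of these data known. Alternatives were other pseudocounts, filters, scalings and a 2-fold threshold.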

Additional observations from a re-analysis of the deposited data

How the results depend on the processing

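The median log2 change of the HOX genes stayed below 0 under both other pseudocounts, a filter at 5 CPM and all 3 other scalings, between -0.25 and -0.12, and was 0 without a filter, when 38 genes entered. Cluster C stayed lower under all 3 scalings, at log2 ratios of sums from -0.47 to -0.42, beside -0.39 as deposited. All 80 recomputed values of single genes stayed within their counting interval. For the 3 scalings this was nearly fixed beforehand, since their shifts were small beside the width of the intervals. HOXB7 alone changed sign, and the sum of cluster B turned from 0.01 to -0.07 with equal totals, to -0.02 with a median log2 ratio of 0 and to -0.04 with quantile normalization. Without HOXA10, a setting chosen after seeing the data, the log2 ratio of cluster A was 0.082 in place of -0.075. The 2 genes higher became 1 with a filter at 5 CPM, equal totals, a median log2 ratio of 0 or quantile normalization, and 0 with a pseudocount of 5 CPM or a 2-fold threshold. The 1 gene lower became 3 with a pseudocount of 0.25 CPM, 2 with equal totals or a median log2 ratio of 0, and 0 with a pseudocount of 5 CPM, a filter at 5 CPM or a 2-fold threshold. Over all genes, 769 were higher and 476 lower at 1.5-fold in the main setting. These counts became 932 and 657 with a pseudocount of 0.25 CPM and 329 and 159 with 5 CPM. They were 465 and 310 with a filter at 5 CPM, where 11209 genes entered, and 606 and 671 with equal totals. With a median log2 ratio of 0 they were 711 and 534, with quantile normalization 682 and 558, and at 2-fold 194 and 70. Without a filter, 3 of 38 HOX genes were higher and 1 lower, beside 908 and 567 of 26447 genes. The moving HOX counts are therefore not read as a trait of HOX genes. No paired analysis was possible because each group holds 1 library. Depth limits the genes under 1 CPM, whose few reads leave wide intervals.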

Other observations

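Homeobox genes outside the HOX clusters lay mostly the other way from cluster C. Of 17 compared genes of the wider Antennapedia class, 14 lay above 0 and 3 below, where 45.9% of all compared genes lay below 0, with a median log2 change of 0.28, beside 0.03 over all compared genes, and 2 were higher at 1.5-fold and none lower, where 5.78% and 3.57% of all compared genes were. These were DLX3, which acts in placenta and hair, at 9.39 CPM in the shNRP2 library and 4.14 CPM in the shControl library (ratio 2.27, 1.75 to 2.96), and MNX1, a motor neuron and pancreas factor, at 10.0 and 6.18 CPM (ratio 1.62, 1.30 to 2.04). MSX1 was at 16.2 and 12.9 CPM, MSX2 at 14.2 and 12.5 CPM and PDX1 at 8.49 and 10.1 CPM. With equal library totals the median over all compared genes was -0.05.

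Genes near the HOX clusters, with up to 4 coding genes between, did not move as a block with them. Around cluster C, 5 of 8 compared neighbours lay above 0 and 3 below, with a median log2 change of 0.07. Around cluster A, 6 lay above 0 and 2 below (median 0.24), around cluster B 6 and 1 (0.15), and around cluster D 3 and 3 (-0.04). Over all compared genes, 45.9% lay below 0 and the median was 0.03. At 1.5-fold, 3 of 29 compared neighbours were higher and 1 lower, where 5.78% and 3.57% of all compared genes were. So few genes cannot set the neighbours apart from that background. Next come single neighbours of cluster C. CBX5, a heterochromatin protein with 1 coding gene between it and the cluster, was at 138 CPM in the shNRP2 library and 215 CPM in the shControl library, 1.56-fold lower (1.48 to 1.63). With no coding gene between them and the cluster, SMUG1 was at 43.2 and 47.4 CPM and CALCOCO1 at 27.7 and 25.8 CPM. The RNA-binding gene HNRNPA1, the highest neighbour, was at 2041 and 1995 CPM. NFE2 was at 1.98 and 0.633 CPM (ratio 3.13, 1.65 to 6.35) and reached a mean of 1 CPM only through the shNRP2 library. Around cluster A, JAZF1 was at 6.84 and 4.09 CPM (ratio 1.67, 1.27 to 2.21) and HNRNPA2B1 at 1294 and 1428 CPM. PRAC1, a prostate gene at the posterior end of cluster B, was at 2.41 and 1.07 CPM (ratio 2.25, 1.34 to 3.89).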
